A study of Homo sapiens with 8 samples.

Results

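Transcription factors and cofactors of the GATA1 complex were followed in MEG-01, an established line of human megakaryoblastic leukaemia cells. The 10 genes were GATA1, GATA2, ZFPM1, TAL1, LMO2, LYL1, LDB1, GFI1, GFI1B and NFE2, taken by gene symbol from the 60754 genes of the deposited tables. Each symbol named 1 gene, and all 10 were among the 17314 genes with enough counts to be tested. Messenger RNA had been sequenced in 4 groups of 2 libraries. Cells in the first group received PMA at 100 nM together with Ceefourin 2 at 20 µM, and those in the second received PMA at 100 nM alone. Another group received Ceefourin 2 alone, at a dose that the sources used here do not give, and the last was untreated. Treatments lasted 48 h, and all groups were the same line in the same medium. PMA, a phorbol ester, switches on protein kinase C and pushes this line towards megakaryocytes, and Ceefourin 2 inhibits ABCC4, a transporter of cyclic nucleotides and purine analogues. A single leukaemia line stands here for the megakaryocyte lineage. No source used here says that the 2 libraries of a group came from separate cultures, so the p values measure only the spread between these libraries.

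As background, GATA1 is a zinc finger factor needed for erythroid and megakaryocyte maturation, and GATA2 is its relative of blood stem cells and early progenitors, which GATA1 displaces at many sites as cells mature. TAL1 pairs with an E protein on DNA, the adaptor LMO2 bridges it to the GATA factor, and LDB1 binds LMO2 and brings distant enhancers to promoters by pairing with itself. ZFPM1, also called FOG1, binds the GATA1 finger and recruits repressor enzymes. GFI1 and GFI1B are repressors, and NFE2 switches on late platelet genes.

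Expected counts summed to between 44430292 and 89950886 per library. Mitochondrial transcripts took 8.32% and 4.94% of counts with both agents and 9.61% and 4.53% with PMA alone, against 2.77% and 3.11% with Ceefourin 2 alone and 2.55% and 3.94% in untreated cells. The share was thus higher in every PMA library than in every library without PMA, and highest in replicate 1 of both PMA groups. Its part in the differences reported here was not tested. The label was checked against 8 megakaryocyte markers, which summed to 1082 to 1148 TPM (a level per transcript length, scaled to the same total in each library) with both agents, 1017 to 1107 with PMA, 367 to 434 with Ceefourin 2 and 316 to 324 in untreated cells. ITGA2B, the platelet integrin alpha IIb chain, made up most of that sum in every group, with a mean of 301 TPM in untreated cells. A mean of at least 1 TPM was reached by 6 of the 8 markers in each PMA group, and by 3 of the 8 with Ceefourin 2 alone and in untreated cells. PF4 was listed at 0 in both libraries of each group except PMA plus Ceefourin 2. In untreated cells 6 mast cell and basophil markers summed to 307 to 366 TPM, and 6 erythroid markers to 257 to 263 TPM. The marker sums of untreated cells therefore do not single out the megakaryocyte lineage. In bulk RNA, fewer cells of a type and less RNA per cell cannot be told apart, and this holds for every level given here.

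After PMA, 7 of the 10 genes rose and 1 fell relative to untreated cells. GFI1B, TAL1, ZFPM1, GATA1, LMO2, NFE2 and LYL1 were higher, GFI1 was lower, and GATA2 and LDB1 did not pass the test. Of all 17314 tested genes 53.6% passed in this comparison, 27.9% as higher and 25.7% as lower. Levels did not overlap between the groups for 8 of the 10 genes, against 77.9% of all tested genes, which is close to the background. The median log2 fold change was 0.72 over the 10 genes and -0.00201 over all tested genes. A gene was called below an adjusted p of 0.05 in edgeR's quasi-likelihood test, with Benjamini-Hochberg adjustment over all tested genes. With Ceefourin 2 present in both groups, PMA gave 6 higher and 1 lower of the 10, where 53.5% of all tested genes were called, 28.0% as higher and 25.6% as lower, and LYL1 did not pass. Levels did not overlap for 8 of the 10, against 76.2% of all tested genes. The 10-gene median there was 0.72 against 0.0217 for all genes.

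**Figure D1:**
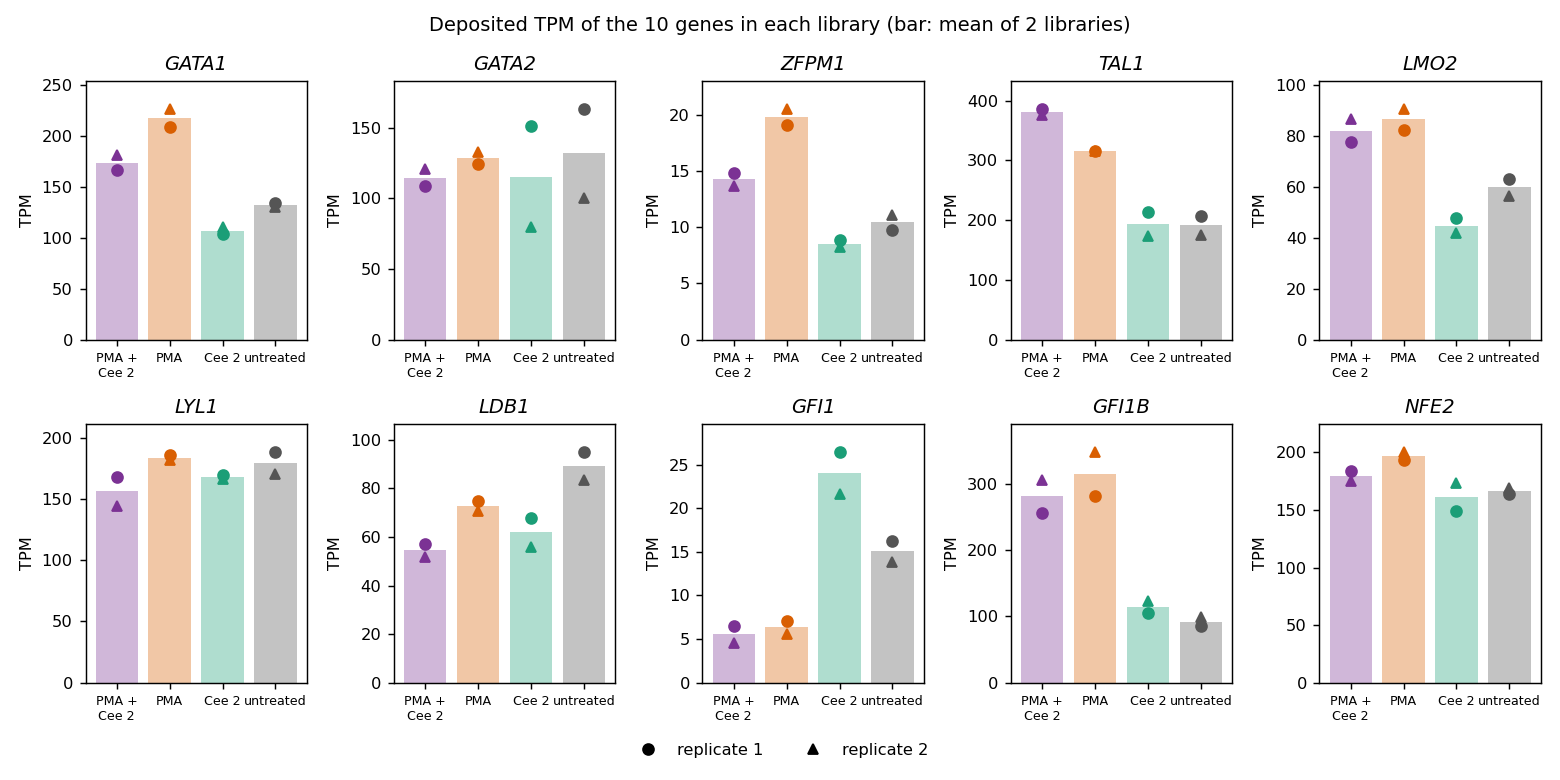
Deposited TPM of each gene (vertical axes, each with its own scale from 0) in PMA plus Ceefourin 2, PMA, Ceefourin 2 and untreated cells; points are libraries and bars are means of 2 libraries. GFI1B lies at 256 to 348 TPM with PMA and at 85.6 to 123 TPM without it, GFI1 shows the opposite order, and GATA2 replicates 1 and 2 lie far apart in the groups without PMA.

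GATA1 (chrX:48786554-48794311, plus strand, GRCh38) rose with PMA. It had 237 and 255 CPM (counts scaled to library size with TMM factors) in PMA cells, against 124 and 130.4 CPM in untreated cells. No PMA library came near an untreated one, with means of 246 ± 12.9 CPM in PMA cells and 127 ± 4.75 CPM in untreated cells (SD, n = 2 each). The log2 fold change was 0.95 ± 0.10 (SE, with edgeR's adjusted p = 0.000128). With both agents GATA1 had 189 and 212 CPM, and with Ceefourin 2 alone 94.2 and 106 CPM, so the libraries with Ceefourin 2 lay below their counterparts without it in both settings. PMA raised GATA1 in the presence of Ceefourin 2 by 1.00 ± 0.10 (log2, SE; edgeR adjusted p = 0.000102).

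GATA2 (chr3:128479427-128493185, minus strand) did not change measurably. Its levels were 247 and 288 CPM with both agents, 282 and 306 CPM with PMA, 282 and 156 CPM with Ceefourin 2, and 299.8 and 203 CPM in untreated cells. Replicate 1 was far above replicate 2 in both groups without PMA, which no other of the 10 genes showed to that extent, and all groups without PMA overlapped those with it. PMA against untreated gave a log2 fold change of 0.23 with a 95% interval of -0.40 to 0.85 (edgeR adjusted p = 0.513), so these libraries could not tell a rise from a fall. Without untreated replicate 1 the estimate was 0.54, and without untreated replicate 2 it was -0.0176. Between the groups with Ceefourin 2 the estimate was 0.29 (edgeR's adjusted p = 0.404), and it passed as a rise of 0.76 without Ceefourin 2 replicate 1 (edgeR's adjusted p = 0.0275). GATA2-AS1, an RNA from the opposite strand that shares no exon bases with GATA2 in the annotation, was at 19.0 to 21.4 TPM with both agents, 20.7 to 21.6 with PMA, 15.3 to 16.0 with Ceefourin 2 and 12.3 to 14.1 in untreated cells.

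ZFPM1 (chr16:88453317-88537016, plus strand) rose with PMA from a low level. It had 44.4 and 48.1 CPM in PMA cells, against 16.6 and 23.5 CPM in untreated cells, without overlap. On the log2 scale the difference was 1.21 ± 0.18 (SE, with edgeR's adjusted p = 0.000849). Cells with both agents had 35.3 and 43.9 CPM, and cells with Ceefourin 2 alone had 15.0 and 17.3 CPM, a difference of 1.29 ± 0.18 (log2, SE; edgeR adjusted p = 0.000597).

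TAL1 (chr1:47216290-47232220, minus strand) rose with PMA to about the same level in both libraries, and stood higher still where Ceefourin 2 was given as well, a step that did not pass the test. It had 1334 and 1334 CPM with both agents, 1005 and 1003 CPM with PMA, 501 and 428 CPM with Ceefourin 2 and 483 and 459.8 CPM in untreated cells. Both PMA groups stood clear of the groups without PMA and of each other, whereas the groups without PMA overlapped. This was a log2 fold change of 1.09 ± 0.10 for PMA against untreated (SE, with edgeR's adjusted p = 5.41e-05) and 1.52 ± 0.10 for PMA plus Ceefourin 2 against Ceefourin 2 (SE, with edgeR's adjusted p = 1.32e-05). An antisense gene, AL135960.1, shares 845 exon bases with TAL1 in the annotation and was at 0.02 to 0.48 TPM.

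LYL1 (chr19:13099033-13103161, minus strand), the closest relative of TAL1 and able to replace it in part in mouse blood stem cells, moved little. It had 219 and 213 CPM in PMA cells, against 178 and 176 CPM in untreated cells, without overlap. The log2 fold change was 0.29 ± 0.08 (SE, with edgeR's adjusted p = 0.0187). That call was lost on the TPM scale, where the fold change was 0.03, and whenever any 1 of these 4 libraries was left out, with values of 0.27 to 0.31. Levels with both agents were 197 and 176 CPM, and with Ceefourin 2 alone 160.2 and 166 CPM, a difference that did not pass the test (0.19; edgeR adjusted p = 0.0862).

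The promoters of TAL1 and LYL1 are shown because both held a GATA word, which was taken as AGATAA or the hexamer TGATAA or the hexamer AGATAG or the hexamer TGATAG on either strand, near the annotated start. Each window is 300 bases from 250 before the start, read along the gene's strand from RefSeq, GRCh38.p14, at chr1:47232286-47232585 for TAL1 and chr19:13102809-13103108 for LYL1, both minus strand. TAL1 has another window, at chr1:47231666-47231965, which held no GATA word and is not shown. Capitals mark the GATA words, which here read in reverse complement.
TAL1: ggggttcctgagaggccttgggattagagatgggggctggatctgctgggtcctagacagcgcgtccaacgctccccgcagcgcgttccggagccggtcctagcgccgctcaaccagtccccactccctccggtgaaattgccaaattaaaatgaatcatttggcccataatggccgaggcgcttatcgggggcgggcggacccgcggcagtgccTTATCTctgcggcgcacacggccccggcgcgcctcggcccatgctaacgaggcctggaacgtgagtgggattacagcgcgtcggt
LYL1: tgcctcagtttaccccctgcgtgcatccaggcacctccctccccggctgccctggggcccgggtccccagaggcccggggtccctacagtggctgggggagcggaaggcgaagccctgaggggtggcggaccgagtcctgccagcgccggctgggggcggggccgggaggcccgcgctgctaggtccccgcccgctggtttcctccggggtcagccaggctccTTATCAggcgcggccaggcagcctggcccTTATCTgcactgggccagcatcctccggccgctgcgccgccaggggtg

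LMO2 (chr11:33858576-33892289, minus strand) rose with PMA. It had 115 and 125 CPM in PMA cells, against 63.6 and 60.7 CPM in untreated cells, and the groups did not overlap. On the log2 scale the difference was 0.95 ± 0.10 (SE, with edgeR's adjusted p = 0.00013). Cells with both agents had 100.0 and 114 CPM, against 47.0 and 43.4 CPM with Ceefourin 2 alone, a difference of 1.24 ± 0.10 (log2, SE; edgeR adjusted p = 3.67e-05).

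LDB1 (chr10:102107560-102120453, minus strand) was lower in the libraries with Ceefourin 2. It had 98.6 and 93.2 CPM with both agents, 136 and 125 CPM with PMA, 99.0 and 86.0 CPM with Ceefourin 2 and 137 and 131 CPM in untreated cells. All 4 libraries with Ceefourin 2 lay below all 4 without it, and PMA and untreated cells overlapped. PMA against untreated gave -0.04 with a 95% interval of -0.26 to 0.18 (log2; edgeR adjusted p = 0.734). On counts this interval leaves out a change of the size seen for GATA1. Over the alternatives the estimate ranged from -0.29 to 0.0202, and none of them called LDB1. Ceefourin 2 against untreated gave -0.53 ± 0.10 (log2, SE; edgeR adjusted p = 0.0409), the single member called in that comparison.

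GFI1B (chr9:132944000-132991687, plus strand) showed the greatest rise of the 10 genes after PMA. It had 414 and 509 CPM in PMA cells, against 100.1 and 127 CPM in untreated cells, so each PMA library exceeded each untreated one by a wide margin. The increase was 4.06-fold, a log2 fold change of 2.02 ± 0.18 (SE, with edgeR's adjusted p = 6.22e-05). With both agents it had 375 and 466 CPM, against 122 and 153 CPM with Ceefourin 2 alone, a log2 fold change of 1.61 ± 0.18 (SE, with edgeR's adjusted p = 0.000188). GFI1B shares 349 exon bases with TSC1 on the opposite strand, and TSC1 was at 16.2 to 23.3 TPM. The libraries were stranded, but the sources used here do not say whether strand was used in counting. The promoter of the downstream start of GFI1B is shown because this gene rose most and the window holds a GATA word. It lies at chr9:132978444-132978743 on the plus strand (RefSeq, GRCh38.p14). Another GFI1B window, at chr9:132945281-132945580, also holds a GATA word and is not shown. In the sequence below, capitals mark the GATA word.
GFI1B: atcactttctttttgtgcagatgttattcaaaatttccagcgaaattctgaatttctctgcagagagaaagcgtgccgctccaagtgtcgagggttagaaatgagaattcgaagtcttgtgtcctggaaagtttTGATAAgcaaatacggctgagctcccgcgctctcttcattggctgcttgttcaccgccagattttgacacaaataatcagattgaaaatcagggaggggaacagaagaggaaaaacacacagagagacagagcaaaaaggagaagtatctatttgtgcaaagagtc

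GFI1 (chr1:92474762-92486876, minus strand), the relative of GFI1B that acts in stem cells, lymphocytes and granulocytes, fell with PMA. It had 17.0 and 13.6 CPM in PMA cells, against 32.0 and 30.3 CPM in untreated cells. This was a log2 fold change of -1.02 ± 0.18 (SE, with edgeR's adjusted p = 0.00216). With Ceefourin 2 alone GFI1 stood at 53.2 and 43.9 CPM, above both untreated libraries, and with both agents at 16.0 and 11.5 CPM, overlapping PMA cells. The difference between the groups with Ceefourin 2 was therefore -1.83 ± 0.19 (log2, SE; edgeR adjusted p = 0.000123).

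NFE2 (chr12:54292111-54301121, minus strand), the subunit that pairs with small MAF proteins, rose moderately. It had 259.5 and 267 CPM in PMA cells, against 176 and 199 CPM in untreated cells, without overlap. The log2 fold change was 0.49 ± 0.11 (SE, with edgeR's adjusted p = 0.00708), and 0.24 on the log2(TPM + 1) scale, where limma's adjusted p was 0.052. Without replicate 1 of both PMA groups it was 0.52, with an edgeR adjusted p of 0.0535. With both agents NFE2 had 245 and 243 CPM, against 160.3 and 198 CPM with Ceefourin 2 alone (0.45 ± 0.11, log2, SE; edgeR adjusted p = 0.0104). That call was lost without Ceefourin 2 replicate 1, with 0.30, without replicate 1 of both PMA groups, with 0.45, and on the TPM scale, with 0.16.

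Promoter windows were found for 8 of the 10 genes in the RefSeq table, 13 windows in all, and LMO2 and NFE2 had none there. GATA words occurred in 5 of the 13 windows, belonging to 4 of the 8 genes (TAL1, LYL1, GFI1 and GFI1B), and in 25.0% of all 35116 promoters searched. The E-box CAGNTG, the word bound by TAL1 and its partners, occurred in 3 of 13 windows, and in 49.9% of all promoters. The word TGANTCA, the core bound by NFE2 and its MAF partners, occurred in 1 of 13, that of TAL1 shown here, and in 7.71% of all promoters. These are matches of letters on both strands, and TGANTCA does not overlap the GATA words in that window.

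Few of the 10 genes passed the test for Ceefourin 2. Given with PMA, it left all 10 short of the threshold relative to PMA alone in edgeR's test, where 1.83% of all tested genes were called, 0.918% as higher and 0.913% as lower. At an unadjusted p below 0.05 there were 4 (GATA1, TAL1, LYL1 and LDB1). The share of all tested genes at that level was not computed, so this count has no background beside it. DESeq2 called 2 (TAL1 and LDB1) and limma on TPM called 0. A fit blocked on replicate number called GATA1, TAL1 and LDB1, and 1482 of all tested genes. The 2 groups did not overlap for 7 of the 10, against 45.4% of all tested genes. The closest to the threshold were LDB1, at -0.44 (95% interval -0.66 to -0.22; edgeR adjusted p = 0.0679), and TAL1, at 0.41 (95% interval 0.19 to 0.63; edgeR adjusted p = 0.083). TAL1 was the only one of the 10 with a positive estimate, and the other 9 lay between -0.44 and -0.11, with GATA1 at -0.30 (95% interval -0.52 to -0.07; edgeR adjusted p = 0.219).

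Given alone, Ceefourin 2 lowered LDB1 and no other member in edgeR's test with group means only. That test called 1.68% of all tested genes, 0.959% as higher and 0.722% as lower. A fit blocked on replicate number called GATA1, LMO2, LDB1, GFI1 and GFI1B, and 1430 of all tested genes. With group means only, the LDB1 call did not hold on the TPM scale (-0.52) or when any 1 of the 8 libraries was left out. Its log2 fold changes were -0.62 to -0.43 throughout. GFI1 had the highest estimate, 0.64 (95% interval 0.22 to 1.06; edgeR adjusted p = 0.154), and both of its Ceefourin 2 libraries exceeded both untreated ones. LMO2 was at -0.46 (95% interval -0.69 to -0.23; edgeR adjusted p = 0.0677) and GATA1 at -0.34 (95% interval -0.57 to -0.12; edgeR adjusted p = 0.159). TAL1, at -0.02 (95% interval -0.24 to 0.20; edgeR adjusted p = 0.963), and NFE2, at -0.07 (95% interval -0.33 to 0.19; edgeR adjusted p = 0.875), had estimates near 0. The libraries of Ceefourin 2 and untreated cells were without overlap for 5 of the 10 genes, against 40.7% of all tested genes.

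Averaging the Ceefourin 2 effect over cells with and without PMA, a contrast added after the data were seen, LDB1, GATA1 and LMO2 fell and the other 7 did not pass. This contrast called 4.75% of all tested genes, 2.63% as higher and 2.13% as lower. A fit blocked on replicate number called ZFPM1, TAL1 and LYL1 as well, and 2649 of all tested genes. LDB1 fell by 0.49 on the log2 scale (SE 0.07; edgeR adjusted p = 0.00931), GATA1 fell by 0.32 (SE 0.07; edgeR adjusted p = 0.0421) and LMO2 fell by 0.31 (SE 0.07; edgeR adjusted p = 0.0455). LDB1 alone was called when any 1 library was left out, and its call was lost without replicate 1 of both PMA groups, with -0.47 (edgeR adjusted p = 0.146).

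**Figure D2:**
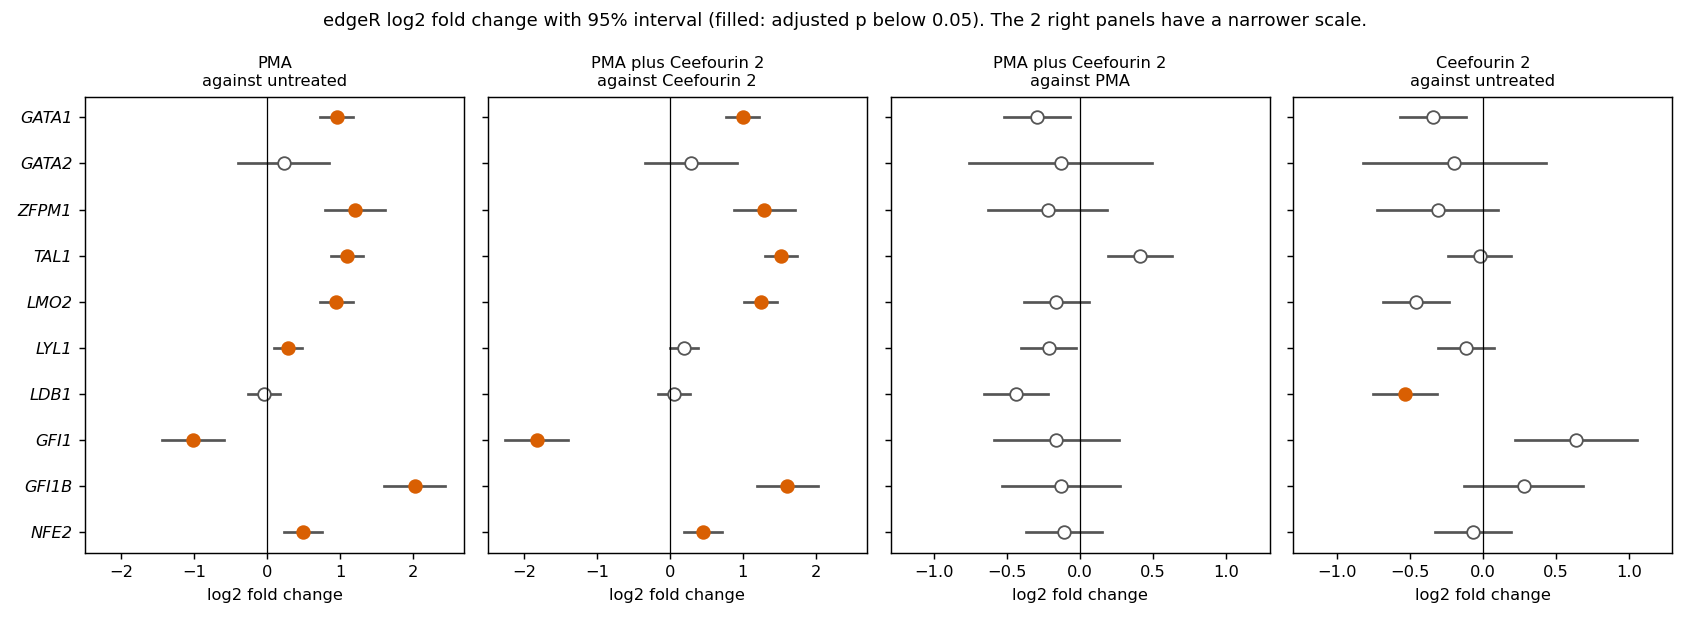
Log2 fold changes of the 10 genes (horizontal axis) with 95% intervals in 4 comparisons, from edgeR; filled points have an adjusted p below 0.05, and the 2 panels on the right use a narrower scale. In the PMA panels 8 and 7 genes are filled, in the panel of PMA plus Ceefourin 2 against PMA none, and in the panel of Ceefourin 2 against untreated LDB1 only.

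Whether the response to PMA differed with Ceefourin 2 was tested as an interaction. None of the 10 genes passed in edgeR's test, which called 0.0116% of all tested genes. At an unadjusted p below 0.05 there were 2, TAL1 and GFI1, and here too the share of all tested genes was not computed. DESeq2 and limma called 0 of the 10. A fit blocked on replicate number called GFI1 and GFI1B, and 247 of all tested genes. The interaction estimate was 0.43 ± 0.13 for TAL1 (log2, SE; edgeR adjusted p = 0.476), towards a larger rise with Ceefourin 2 present. For GFI1 it was -0.80 ± 0.26 (log2, SE; edgeR adjusted p = 0.506). This lies towards a larger fall, with -1.83 in the presence of Ceefourin 2 and -1.02 without it. GFI1B was at -0.41 (95% interval -0.99 to 0.16; edgeR adjusted p = 0.893) and LMO2 at 0.30 (95% interval -0.02 to 0.61; edgeR adjusted p = 0.748). The other 6 lay between -0.10 and 0.09.

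The pairs of related genes were also set against each other within each library, as ratios of TPM, which is per length. The GFI1B to GFI1 ratio was 39.2 and 66.5 with both agents and 39.4 and 62.3 with PMA, against 3.95 and 5.70 with Ceefourin 2 and 5.26 and 7.13 in untreated cells. PMA libraries thus stood far apart from the rest, while the groups with and without Ceefourin 2 overlapped. The TAL1 to LYL1 ratio was 2.30 and 2.61 with both agents and 1.70 and 1.74 with PMA, against 1.26 and 1.04 with Ceefourin 2 and 1.10 and 1.03 in untreated cells, so that the cells with both agents stood above all others. For GATA1 to GATA2 the ratio was 1.53 and 1.502 with both agents and 1.68 and 1.71 with PMA, against 0.688 and 1.39 with Ceefourin 2 and 0.824 and 1.301 in untreated cells. GATA1 exceeded GATA2 in every PMA library, and in the groups without PMA it did so only in replicate 2, where GATA2 was low.

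**Figure D3:**
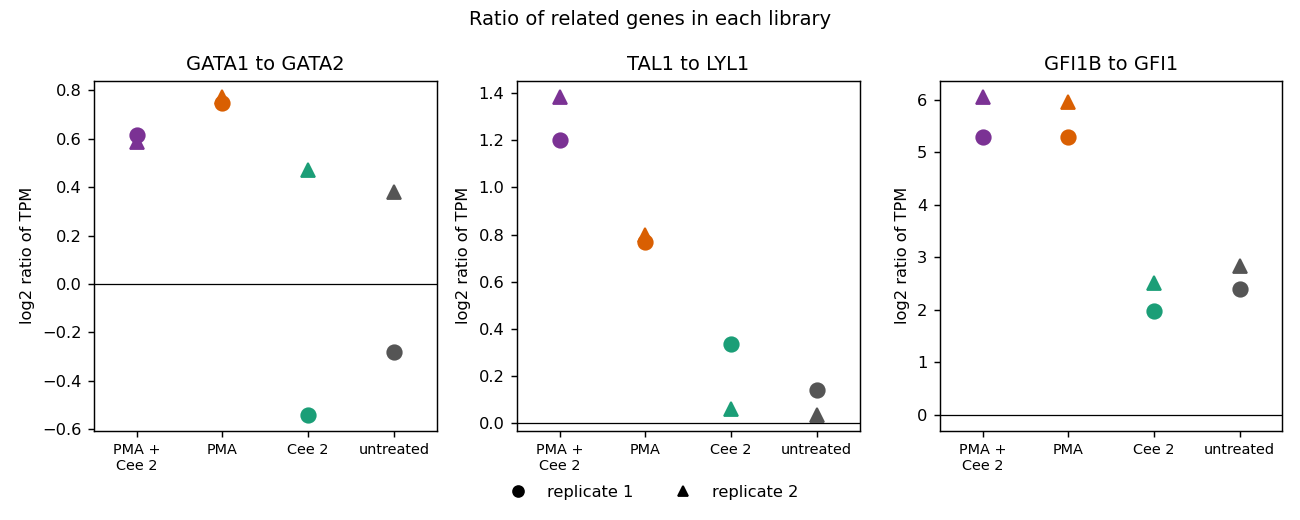
Log2 ratio of TPM (vertical axes, each with its own scale) for GATA1 to GATA2, TAL1 to LYL1 and GFI1B to GFI1 in PMA plus Ceefourin 2, PMA, Ceefourin 2 and untreated cells; each point is 1 library. All 3 ratios are higher in every PMA library than in every library without PMA, and replicates 1 and 2 of the groups without PMA lie on opposite sides of 0 for GATA1 to GATA2.

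By mean TPM, TAL1 was the highest of the 10 in each group, with 381 ± 7.59 TPM with both agents, 316 ± 0.431 with PMA, 194 ± 28.4 with Ceefourin 2 and 191 ± 23.2 in untreated cells (SD, n = 2 each). GFI1B was second in both PMA groups, with 281 ± 35.8 TPM with both agents and 315 ± 47.5 with PMA, and its libraries overlapped those of TAL1 in the PMA group. In untreated cells it was sixth, at 92.3 ± 9.42 TPM, and did not differ from LDB1 at 89.2 ± 8.21 beyond their spread. The order in untreated cells was TAL1, LYL1, NFE2, GATA1, GATA2, GFI1B, LDB1, LMO2, GFI1 and ZFPM1, where TAL1 and LYL1 overlapped, as did GATA1 and GATA2. In PMA cells it was TAL1, GFI1B, GATA1, NFE2, LYL1, GATA2, LMO2, LDB1, ZFPM1 and GFI1. GFI1 was thus lowest with PMA, at 6.36 ± 1.09 TPM, and ZFPM1 was lowest without it, at 10.4 ± 0.983 TPM in untreated cells. With both agents NFE2, GATA1 and LYL1 overlapped in neighbouring places, and with Ceefourin 2 alone each neighbour from LYL1 down through NFE2, GATA2 and GFI1B to GATA1 overlapped the next.

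The count per TPM of a gene reflects the mean length of the transcripts RSEM assigned to it. It was scaled by 288 genes with 1 annotated transcript and set relative to the untreated mean, as a description added after the data were seen. For 95% of those 288 genes the value lay between 0.9897 and 1.001 with both agents and between 0.9991 and 1 with PMA. Genes with 1 transcript have no others to shift to, so this range does not show how genes with several transcripts vary. No range was computed for those, so how unusual the values below are was not tested. TAL1 was at 1.175 and 1.163 with both agents, 1.078 and 1.083 with PMA, 0.989 and 0.983 with Ceefourin 2 and 0.982 and 1.018 in untreated cells. The implied length of TAL1 was thus greater in every PMA library than in every library without PMA, and greatest with both agents. LMO2 was at 1.045 and 1.025 with both agents and 1.121 and 1.117 with PMA, against 0.988 and 0.984 with Ceefourin 2 and 1.010 and 0.990 in untreated cells. The annotation holds 6 transcripts for each of these genes, and which ones are behind the shift cannot be read from gene-level values. ZFPM1 varied between replicates, at 1.055 and 1.374 with both agents and 0.939 and 1.065 in untreated cells, while LYL1 and NFE2 stayed between 0.997 and 1.003 in all libraries. Fold changes of TAL1 and LMO2 were smaller on the log2(TPM + 1) scale, at 0.73 and 0.53 for PMA against untreated, and remained called by limma (adjusted p = 0.00157 for TAL1 and 0.00451 for LMO2). A smaller value there was not particular to genes with a length shift. NFE2 and LYL1, whose implied lengths stayed near 1, were at 0.24 and 0.03 there, against 0.49 and 0.29 on counts. On that scale the median of all tested genes was -0.14, against -0.00201 on counts. The part of transcript length in these differences was not tested.

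**Figure D4:**
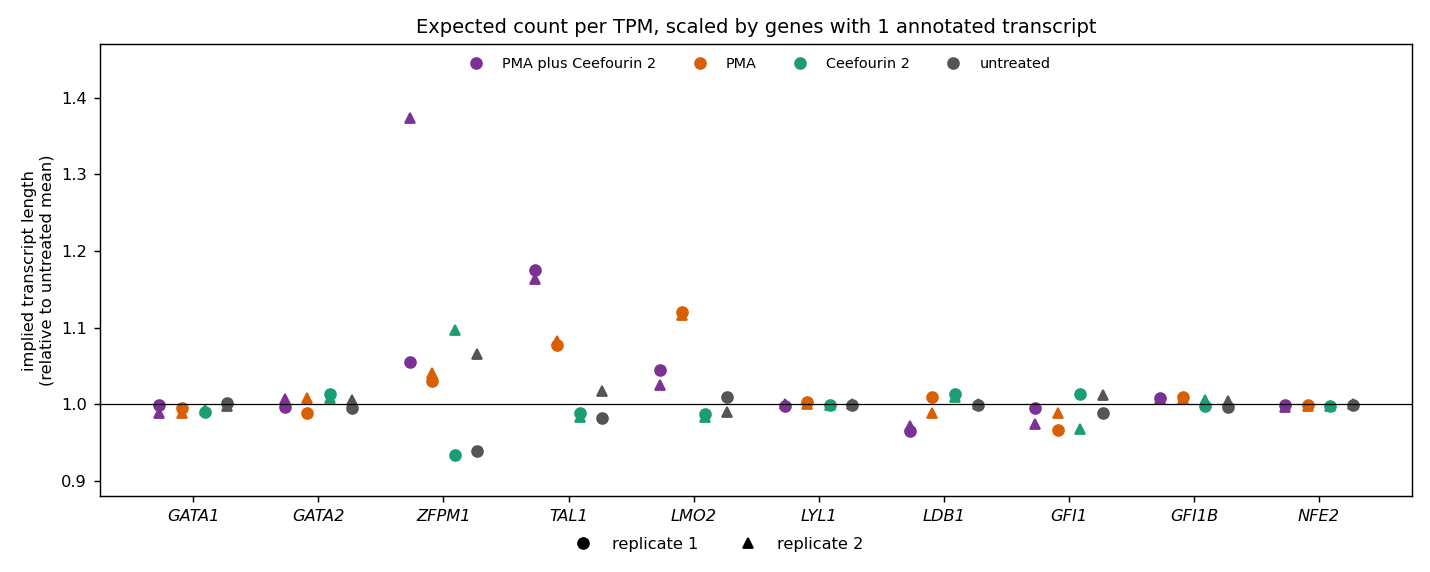
Expected count per TPM of each gene, scaled by 288 genes with 1 annotated transcript and given relative to the untreated mean (vertical axis), with 1 point per library. TAL1 reaches 1.163 to 1.175 with both agents, LMO2 1.117 to 1.121 with PMA, and 1 ZFPM1 library with both agents stands apart at 1.374.

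The genes that work with these factors were described as lists. Of 12 complex partners (E proteins, LDB1 stabilisers, ETO proteins and lineage factors), 4 rose and 4 fell after PMA, near the 27.9% and 25.7% of all tested genes, with a median log2 fold change of -0.05. SSBP3, which protects LDB1 from degradation, rose by 1.84 ± 0.10 (edgeR adjusted p = 6.78e-06), and RUNX1, a megakaryocyte factor that joins the complex, rose by 0.77 ± 0.10 (edgeR adjusted p = 0.000441). KLF1, the erythroid activator, averaged 48.6 ± 0.0915 CPM in PMA cells and 143 ± 8.06 CPM in untreated cells, and TCF3, an E protein that pairs with TAL1, averaged 91.2 ± 1.64 CPM in PMA cells and 165 ± 6.69 CPM in untreated cells (SD, n = 2 each). Ceefourin 2 alone lowered KLF1 to 72.6 ± 19.0 CPM, the 1 partner called (-0.98, edgeR adjusted p = 0.0288), and with PMA it raised SSBP2 by 0.63 (edgeR adjusted p = 0.0495). Of the 12 paralogs of the members 9 were tested, and 2 rose and 2 fell after PMA, where 27.9% of all tested genes rose and 25.7% fell. ZFPM2, the relative of ZFPM1, rose to 3.72 ± 0.125 CPM in PMA cells, against 0.0186 ± 0.00315 CPM in untreated cells, a level too low to give a fold. LMO3, a relative of LMO2, averaged 3.61 ± 0.495 CPM in PMA cells and 16.9 ± 3.14 CPM in untreated cells.

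Of 23 corepressors and coactivators that GATA1, ZFPM1, GFI1 or GFI1B recruit, 13 fell and 4 rose after PMA, where 25.7% and 27.9% of all tested genes did, and the median was -0.33. KDM1A, the histone demethylase bound by GFI1B, averaged 157 ± 1.48 CPM in PMA cells and 278 ± 19.6 CPM in untreated cells, and RBBP4, a histone chaperone, fell by 0.63. EHMT2, a histone methyltransferase, fell by 0.90, and CHD4, the remodeller of the NuRD complex that ZFPM1 recruits, rose by 0.75. The counts were again 13 and 4 for PMA plus Ceefourin 2 against Ceefourin 2. All 5 small MAF and BACH genes, the partners of NFE2 and the factors that compete for those partners, rose after PMA, where 27.9% of all tested genes did, with a median of 0.92. MAFF averaged 20.8 ± 0.364 CPM in PMA cells and 4.58 ± 1.15 CPM in untreated cells, BACH2 averaged 21.9 ± 7.32 CPM in PMA cells and 5.85 ± 0.540 CPM in untreated cells, and MAFG averaged 245 ± 5.57 CPM in PMA cells and 129.7 ± 12.8 CPM in untreated cells (SD, n = 2 each).

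Known targets of these factors were counted by lineage. All 14 tested megakaryocyte targets of 16 rose after PMA, where 27.9% of all tested genes did, with a median of 4.25, and PF4 and TREML1 were not tested. VWF, the von Willebrand factor, averaged 4.91 ± 0.706 CPM in PMA cells and 0.0104 ± 0.0147 CPM in untreated cells, and PPBP, a platelet chemokine, averaged 4.98 ± 0.0456 CPM in PMA cells and 0.0163 ± 0.0231 CPM in untreated cells, and no fold is given for these near-empty counts. TUBB1, the platelet tubulin and an NFE2 target, averaged 90.2 ± 39.1 CPM in PMA cells and 1.80 ± 1.36 CPM in untreated cells, and SELP, the platelet P-selectin, averaged 21.9 ± 9.41 CPM in PMA cells and 0.469 ± 0.0757 CPM in untreated cells. Of 19 tested erythroid targets 12 fell and 6 rose, where 25.7% of all tested genes fell and 27.9% rose, with a median of -1.05. The risers included the fetal globin HBG2, with 12209 ± 1526 CPM in PMA cells and 2357 ± 409 CPM in untreated cells, although its reads may be split with HBG1, a near copy. SLC4A1, the red cell anion exchanger, averaged 0.456 ± 0.0027 CPM in PMA cells and 5.95 ± 1.38 CPM in untreated cells. Among 11 tested genes repressed by GFI1 or GFI1B, 4 rose and 3 fell after PMA, near the 27.9% and 25.7% of all tested genes. CDKN1A, an inhibitor of the cell cycle, averaged 184 ± 19.2 CPM in PMA cells and 5.45 ± 0.447 CPM in untreated cells, and HOXA9, a stem cell factor, averaged 10.97 ± 1.36 CPM in PMA cells and 49.2 ± 6.52 CPM in untreated cells.

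Ceefourin 2 alone lowered 12 of the 19 erythroid targets, where 0.722% of all tested genes fell, with a median of -1.31 against -0.00457 for all tested genes. HBB, the adult beta globin, averaged 1.62 ± 0.0287 CPM with Ceefourin 2 and 6.82 ± 2.12 CPM in untreated cells (SD, n = 2 each). Of the megakaryocyte targets 3 of 14 rose, where 0.959% of all tested genes did, ITGB3 by 1.31, THBS1 by 1.03 and GP6 by 0.96 on the log2 scale. Added to PMA, where it called 1.83% of all tested genes, it called 1 of 19 erythroid targets, HBD, at 12.8 ± 3.09 CPM with both agents and 36.2 ± 3.94 CPM with PMA, and 1 of 14 megakaryocyte targets, SELP, at 2.57 ± 0.761 CPM with both agents and 21.9 ± 9.41 CPM with PMA. Of the 11 tested genes repressed by GFI1 or GFI1B, 1 rose and 1 fell when Ceefourin 2 was added to PMA. Of all tested genes 0.918% rose and 0.913% fell there, and the list median was 0.283. The 1 that fell was SPI1, the myeloid factor that opposes GATA1 and is repressed by GFI1. It averaged 22.5 ± 4.33 CPM with both agents and 54.1 ± 11.4 CPM with PMA (-1.26, edgeR adjusted p = 0.0181).

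**Figure D5:**
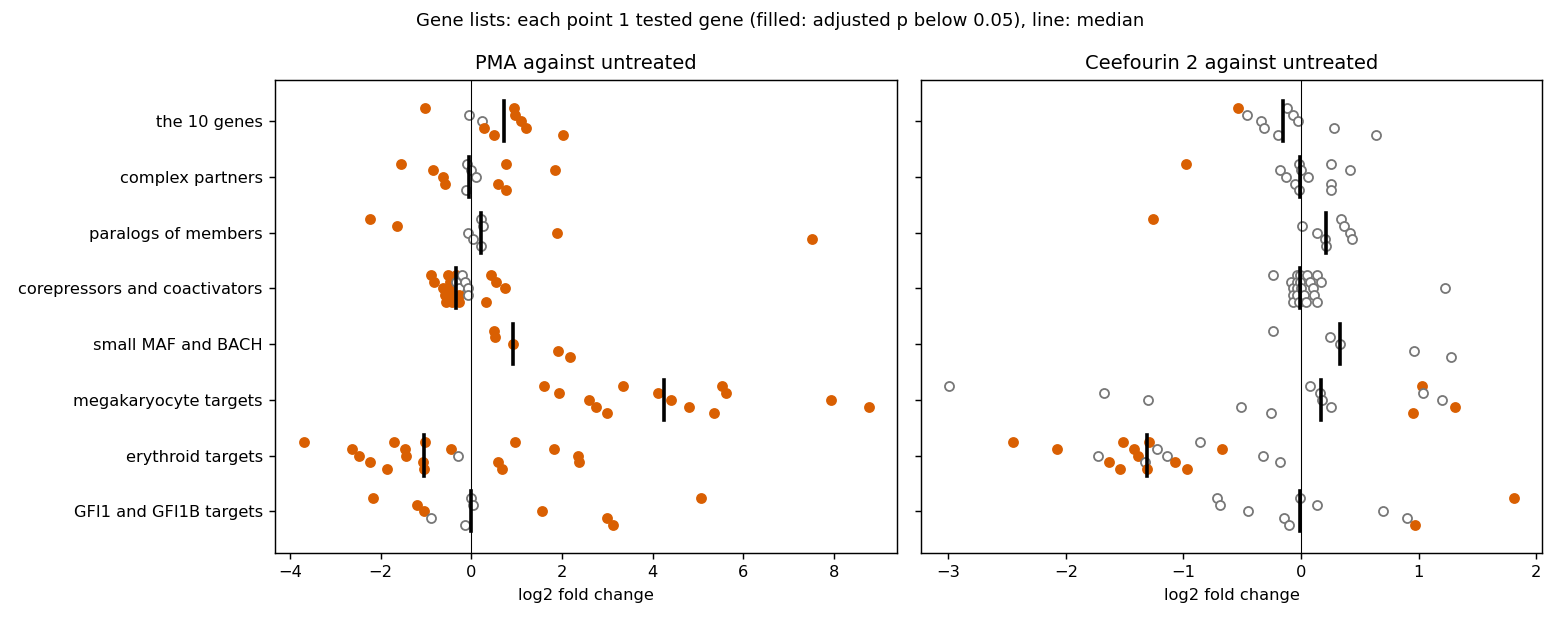
Log2 fold changes (horizontal axes, each with its own scale) of the 10 genes and 7 gene lists for PMA against untreated and for Ceefourin 2 against untreated; each point is 1 tested gene, filled where the adjusted p is below 0.05, and lines are medians. Megakaryocyte targets lie to the right after PMA with a median of 4.25, and erythroid targets lie to the left after Ceefourin 2 with a median of -1.31.

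Markers of other blood and tissue cells moved along with the groups, and their part in the results was not tested. The 6 erythroid markers summed to 69.7 to 98.5 TPM with both agents, 117 to 141 with PMA, 91.5 to 93.6 with Ceefourin 2 and 257 to 263 in untreated cells. The 6 mast cell and basophil markers, a lineage that also uses GATA1 and GATA2, summed to 218 to 221 TPM with both agents, 598 to 670 with PMA, 249 to 286 with Ceefourin 2 and 307 to 366 in untreated cells, with HDC highest in each group. Monocyte and macrophage markers summed to 24.1 to 25.6 TPM with both agents, 29.4 to 30.3 with PMA, 32.9 to 34.1 with Ceefourin 2 and 53.6 to 59.4 in untreated cells. LYZ made up most of this sum, with means of 21.8 TPM with PMA and 35.1 TPM in untreated cells. The list had no common direction, since of 5 tested markers 2 rose and 2 fell after PMA, with a median log2 fold change of 0.589. Endothelial markers, led by ESAM, which platelets carry too, summed to 167 to 169 TPM with both agents, 129 to 141 with PMA, 103 to 104 with Ceefourin 2 and 64.4 to 66.5 in untreated cells, with CLDN5 listed at 0 in all of them. Fibroblast and stromal markers reached 16.1 to 18.8 TPM with both agents and 9.44 to 14.7 with PMA, against 0.52 to 1.07 with Ceefourin 2 and 1.27 to 1.38 in untreated cells. COL1A1 carried this sum in the PMA groups, with means of 17.3 TPM with both agents and 11.7 with PMA. Only 1 of the 5 markers reached 1 TPM in these groups, and of the 2 tested after PMA 1 rose and 1 fell. Neutrophil markers stayed at or below 0.08 TPM and lymphoid markers at or below 2.36 TPM in every library, with ELANE, CEACAM8, CD3E and MS4A1 listed at 0 in every group.

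For 5 of the 10 genes the closest patterns across the 8 libraries were looked up among 10531 genes, by the root mean square difference of centred log2 CPM. The libraries fall into groups with and without PMA, so any gene with a PMA change of like size will score as close. GATA1 was closest to AL713998.1 at 0.0539, PTPN18 at 0.0710 and CARD6 at 0.0722 log2 units. TAL1 was closest to ATG4A at 0.0673, JAK1 at 0.0793 and USF1 at 0.0855. GFI1B was closest to MAP11 at 0.0726, CMTM6 at 0.0814 and TAX1BP3 at 0.107. Among the closest to NFE2 were DCAF11 at 0.0479 and SEPSECS at 0.0548. GATA2, with its uneven replicates, had no match as close, with PRDM6 at 0.128, OTUD4 at 0.144 and PURB at 0.154.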

How the data were processed

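Messenger RNA of 8 MEG-01 libraries, 4 groups of 2, was measured with a stranded poly(A) kit and paired reads, per the labels' protocols. The submitters' processing notes name STAR 2.7, RSEM 1.3.1 and the build hg38; the sources used here do not give the annotation release. The authors deposited RSEM expected counts per gene, not normalized, and RSEM TPM values, both for 60754 genes. Between 7.05% and 7.83% of the expected counts per library were not whole at a tolerance of 1e-06, though all counts of the 10 genes were whole.

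Expected counts were rounded and tested with edgeR 4.0.16 in R 4.3.3. filterByExpr kept 17314 genes, TMM factors lay between 0.92 and 1.083, and 1 quasi-likelihood fit with a mean per group covered all 8 libraries. Residual degrees of freedom were 4, plus a prior of 3.95, and the biological coefficient of variation was 13.6%. Each p was adjusted by Benjamini-Hochberg across the tested genes of its comparison and called below 0.05. The SE is the absolute log2 fold change over the square root of F, and intervals cover 95%. Rose and fell refer to called genes. Alternatives used DESeq2 1.42.0, limma 3.58.1 on log2(TPM + 1) and log2(TPM + 0.1), other filters and scaling, a replicate block, and libraries left out. The fit was checked on counts simulated around the untreated means, with 200 genes changed in PMA plus Ceefourin 2. It recovered 83% of 2-fold and 99% of 4-fold changes, and 7.14% of its 196 calls were false. The simulated libraries were independent and held no broad PMA change. This check therefore does not cover effects shared by replicate number or a shift as wide as that of PMA.

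The 10 genes, the lists and the tests were chosen with earlier results of these data known. All 10 genes are named in each comparison, and from each list up to 4 called genes with the greatest absolute log2 fold change could be named, of which some are. Positions are from GENCODE 29 on GRCh38, matched by gene identifier without version, and promoters are from RefSeq. Replicates of a group differed by more than sampling noise. A gene in 1 list and a gene among the closest patterns are not reported here.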

Additional observations from a re-analysis of the deposited data

How the results depend on the processing

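Over the alternatives, 887 of 1000 values of the 10 genes (88.7%) kept their direction and their side of the threshold, 47 lost a call, 24 gained one and 42 changed sign. After PMA, 6 to 8 of the 10 genes were called under the alternatives. For PMA plus Ceefourin 2 against PMA, where the edgeR test called 0, there were 2 calls without a filter on low counts, 2 with DESeq2 and 3 in a fit blocked on replicate number. For Ceefourin 2 against untreated, where it called 1, there were 3 without the filter, 3 with DESeq2 and 5 with the block (GATA1, LMO2, LDB1, GFI1 and GFI1B), but 0 with only the libraries compared, 0 with limma at either pseudocount and 0 to 0 when 1 library, or replicate 1 of both PMA groups, was left out. The interaction gave 1 without the filter and 2 with the block, and the averaged Ceefourin 2 contrast gave 6 with the block and 0 to 1 with libraries left out. The cause of these differences was not tested.

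Deviations of libraries with the same replicate number from their group means correlated at 0.25 to 0.645 over 17314 genes between groups. Each comparison has only 2 numbers, and no label says what a number stands for. The main fit did not pair libraries by number, and what they share was not tested.

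Values with a changed sign lay between -0.30 and 0.17, both of these for GATA2. With limma at either pseudocount, TAL1 was at 0.0159 and 0.0160 for Ceefourin 2 against untreated, and LYL1 at -0.11 and LDB1 at -0.18 for PMA plus Ceefourin 2 against Ceefourin 2, while the interaction was -0.0173 and -0.0165 for GATA1 and -0.19 for ZFPM1. With libraries left out, PMA against untreated ranged from -0.0176 to 0.54 for GATA2 and from -0.10 to 0.0202 for LDB1. PMA plus Ceefourin 2 against PMA ranged from -0.41 to 0.0606 for GFI1 and from -0.30 to 0.0259 for GFI1B. Ceefourin 2 against untreated ranged from -0.67 to 0.17 for GATA2, from -0.13 to 0.0887 for TAL1 and from -0.23 to 0.0880 for NFE2. PMA plus Ceefourin 2 against Ceefourin 2 ranged from -0.0762 to 0.76 for GATA2 and from -0.0476 to 0.15 for LDB1. The interaction ranged from -0.0614 to 0.13 for GATA1, from -0.30 to 0.53 for GATA2, from -0.21 to 0.28 for ZFPM1, from -0.00544 to 0.18 for LDB1 and from -0.21 to 0.12 for NFE2. The averaged contrast ranged from -0.41 to 0.0175 for GATA2 and from -0.0119 to 0.17 for GFI1B.

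Counts over all genes moved more. PMA plus Ceefourin 2 against PMA called 317 genes, against 1211 without the filter, 799 with DESeq2, 1482 with the block, 180 with limma at the pseudocount of 0.1 and 1 to 324 with libraries left out. Ceefourin 2 against untreated called 291, against 1174, 838 and 1430 under the same first 3 settings, 31 with only the libraries compared and 30 to 188 with libraries left out. The averaged contrast called 823, against 1846, 1431 and 2649, and 57 to 553 with libraries left out. The interaction called 2, against 414, 207 and 247. With 2 libraries a group the SDs are themselves imprecise.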
